A study of Mus musculus with 4 samples.

Results

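The subject is mouse back skin 48 h after a photodynamic treatment, compared with untreated back skin. The members were chosen by their group labels: 2 arrays, 1 of treated and 1 of control back skin, out of 4 arrays in the series. The other 2 arrays hold tail skin. On the treated backs, methyl aminolevulinate was applied as a cream (Metvix), the skin was kept dark for 2.5 h, and red light of 636 nm was then given from an LED lamp to 2.5 J/cm2. The control group is labelled as having had no treatment, and whether its animals also received cream, darkness or sham light is not stated in the labels. The protocol says that animals of the back experiments were completely shaved, without saying whether this held for the controls. Each group had 3 animals by the design, and the sources do not say whether their RNA was pooled. Strain, sex and age of the mice are not given in the sources used here. With 1 array per group there is no replicate error, no test was possible, and every difference below is between these 2 arrays.

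Methyl aminolevulinate is turned by cells into protoporphyrin IX, the last intermediate of heme synthesis. Protoporphyrin IX absorbs red light and passes the energy to oxygen, so that a short burst of reactive oxygen species arises inside the cells that made it. Skin answers injury in a known order: keratinocytes of the basal layer divide and migrate, differentiation of the upper layers is altered, chemokines draw in neutrophils and then monocytes, and matrix enzymes remodel the dermis. Hair follicles renew in cycles from a stem cell compartment called the bulge, which also feeds the epidermis after wounding. The title of the series frames the work as a brief switch-on of reactive oxygen species in skin, and the question addressed here is which genes differed after it.

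A level is the log2 of the scanner's processed spot signal minus the array's own 75th percentile, so that 0 is a signal at that percentile. A difference is the treated level minus the control level, and calls of higher or lower mean 2-fold or more, a size and not a test. Below, a pair of values gives a gene's level in control and then in treated skin, and a single value gives its difference, all in log2. The 75th percentile was a signal of 1860 on the control and 1204 on the treated array. Well above background were 13938 genes in control and 13355 in treated skin, of 16862 with a name, and 666 and 335 were saturated. Where 1 of the 2 arrays was saturated or not well above background, only a bound is given, written as "at least". Where both were, or the bound came to under 1-fold, the gene has no value. A value was had for 13461 genes, of which 12480 were measured on both arrays. Spot noise as the scanner estimates it gave a median error of 0.204 per difference and says nothing of animals. Probes of the same gene had a median SD of 0.22.

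Over all genes with a value, 1826 (13.6%) were called higher and 1698 (12.6%) lower, with a median of -0.01. These shares are the background against which each gene list below is to be read. The split depended on the scaling. With 10 spike-in control probes as the scale, the median of all genes was -0.53 and 17% of the calls were higher, against 51.8% with the 75th percentile. With normexp background correction the median of all genes was 0.13. Of the 51 list medians, 14 took the opposite sign with spike-in scaling, among them those of the NF-kB list at -0.31, the fibroblast list at -0.28, the adipocyte list at -0.30, the skeletal muscle list at -0.19 and the heme and iron list at -0.34. Levels of the Y-linked genes were well above background on both arrays and differed by less than 2-fold, at 0.17 for Kdm5d, -0.42 for Uty, -0.67 for Eif2s3y and -0.81 for Ddx3y, and Xist, the RNA that silences an X chromosome in females, was not well above background on either.

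**Figure D1:**
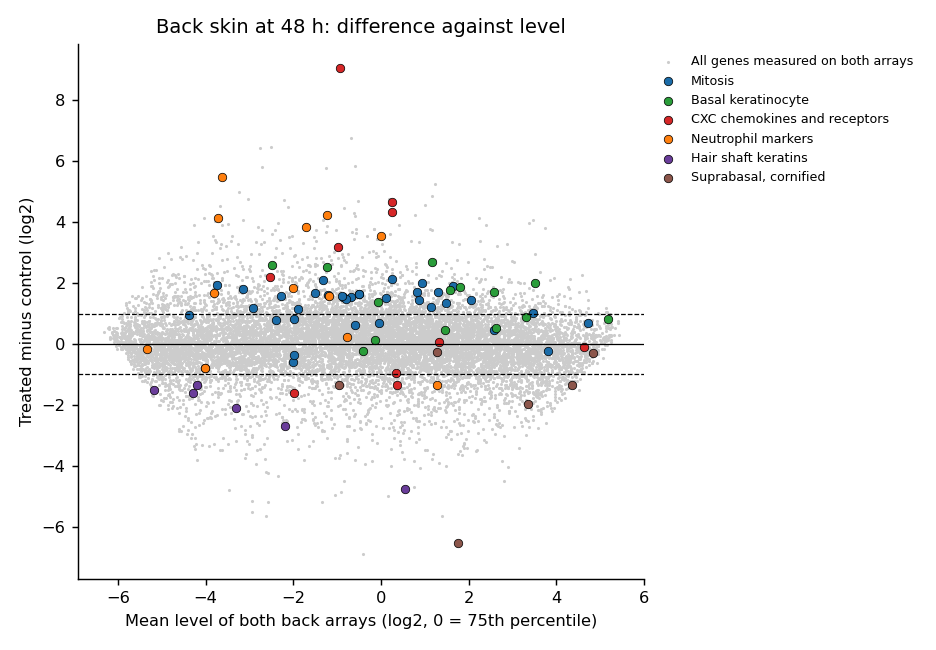
Difference between the back arrays (treated minus control, log2) against the mean level of both arrays, 1 point per gene measured on both. Dashed lines mark 2-fold, and coloured points are members of 6 gene lists. Cxcl3 lies highest at 9.05, and the keratin Krt2 is the lowest of the coloured points at -6.54.

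Epidermal identity was plain on both arrays. The keratins of the basal layer, Krt5 and Krt14, and of the layers above, Krt1 and Krt10, were saturated on both, as were Lor and Col17a1. These genes define keratinocytes, and nothing can be said here about whether they differed. The dermal collagen genes Col1a1 and Col3a1 were also well above background on both arrays, at levels of 0.47 and -0.70 on the control array. In a whole tissue, fewer cells of a type and less RNA per cell cannot be told apart, which holds for every marker below.

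Genes of mitosis were higher or within 2-fold throughout the list. In all 25 of 35 were higher and none was lower (median difference 1.48), against 13.6% of all genes called higher. The spindle checkpoint kinase Bub1 stood at -0.82 on the control and 1.31 on the treated array, 4.38-fold higher. Foxm1, the transcription factor that drives genes of G2 and mitosis, went from -2.37 in control to -0.26 in treated skin, 4.32-fold. The polo-like kinase Plk1 lay at -0.06 and 1.93, 3.96-fold higher. So the checkpoint, its transcription factor and a kinase of mitotic entry differed by nearly the same factor. The spindle-binding protein Hmmr was at -4.71 and -2.79, and the centrosome kinase Aurka at 0.69 and 2.61, 3.77-fold higher each. The cyclins Ccnb2 and Ccnb1 were 1.69 and 1.55 higher, and 3 probes of Ccnb1 ranged from 1.55 to 2.11. Their kinase Cdk1 was 1.68 higher by its brightest probe, while a second probe was at -0.07. Other members lay in the same range: Top2a, which untangles DNA before division, was 1.65 higher, the kinesin Kif2c 1.80 and the centromere histone Cenpa 1.35. The 10 members within 2-fold ran from 0.95 for the phosphatase Cdc25c to -0.60 for the checkpoint kinase Ttk, and included survivin, Birc5, at 0.70 and securin, Pttg1, at -0.23. With spike-in scaling 16 of the 35 were higher, 1 was lower and the median was 0.94. The summed level of the list was 67.4 times the 75th percentile on the control and 122 times on the treated array.

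Many promoters of mitotic genes carry a CCAAT box and a CHR element, the sites read by NF-Y and by the DREAM and MuvB complexes. Promoter sequences from RefSeq (GRCm38.p6) matched 21 of the 25 mitosis genes called higher. In the 150 bases before the annotated start, CCAAT, searched on both strands so that it may read ATTGG, was present in 16 of them (76.2%), against 25.3% of all 27025 genes in that table. Among all 29 listed mitosis genes with a promoter, called or not, the share was 75.9%. The CHR letters TTTGAA or TTCGAA on either strand were present in 7 of the 21 (33.3%), against 9.89% of all genes. Among the 29 listed mitosis genes with a promoter, called or not, 8 had them (27.6%). The members with CHR letters were Cdk1, Cdc20, Kif11, Kif2c, Top2a, Ube2c and Ect2. A match is only a description of the letters. The 3 promoters with the largest differences that the table holds are printed, with CCAAT in capitals: Bub1 at chr2:127831860-127832009 on the minus strand, Plk1 at chr7:122159285-122159434 on the plus strand and Hmmr at chr11:40733438-40733587 on the minus strand. Foxm1 had no entry in the table.
Bub1: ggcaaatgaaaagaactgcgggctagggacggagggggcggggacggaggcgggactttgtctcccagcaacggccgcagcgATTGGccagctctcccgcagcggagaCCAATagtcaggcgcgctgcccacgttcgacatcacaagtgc
Plk1: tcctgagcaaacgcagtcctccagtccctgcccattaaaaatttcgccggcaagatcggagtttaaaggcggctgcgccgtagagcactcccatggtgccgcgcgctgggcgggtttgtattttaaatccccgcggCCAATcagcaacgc
Hmmr: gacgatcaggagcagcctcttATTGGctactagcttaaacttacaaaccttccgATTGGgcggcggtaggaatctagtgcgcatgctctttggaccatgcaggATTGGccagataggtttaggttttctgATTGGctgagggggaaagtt
Bub1 holds 2 such matches, Plk1 holds 1 close to the start and Hmmr holds 4.

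Genes of DNA replication differed in the same direction with more exceptions. Of 36 members, 20 were higher and 1 lower (median 1.09). E2f7, an atypical E2F that represses cell cycle genes late in S phase, was at -2.45 in control and 1.31 in treated skin, 13.5-fold higher. E2f1, the activator of S phase genes, was at -4.56 and -1.87, 6.47-fold higher by its brightest probe and 0.83 by the other. Their relatives differed less, with E2f8 1.04 higher and E2f2 at -0.22. The methylation maintenance factor Uhrf1 was 1.74 and thymidylate synthase, Tyms, 1.67 higher. Thymidine kinase, Tk1, was 2.25 higher, the chromatin assembly subunit Chaf1a 2.12 and the polymerase Pole 1.93. Among the helicase subunits, Mcm5, Mcm2, Mcm3 and Mcm4 were called higher at 1.73, 1.48, 1.47 and 1.26, while Mcm7 at 0.99 and Mcm6 at 0.77 were not. The exception was Cdc6, a licensing factor of replication origins, at -1.06. With spike-in scaling 10 of the 36 were higher. The clamp Pcna, a common proliferation marker, was at 3.90 and 3.72, a difference of -0.18.

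Cyclins and brakes of G1 did not share this direction. Among 17 members of the G1 list 1 was higher and 5 lower (median -0.27). The cyclin-dependent kinase inhibitors Cdkn2c (2.49 in control, 0.57 in treated) and Cdkn2b (3.97 and 2.24) were 3.78- and 3.32-fold lower. The p53 target Cdkn1a was at 4.21 and 3.07, 2.20-fold lower, and the anti-proliferative factor Btg2 was at -1.84 by its brightest probe, with 3 probes from -1.84 to -0.60. Mycn, a Myc relative, was at -1.70. The cyclin genes Ccnd2 and Ccnd3, at -0.27 and 0.28, and the kinase Cdk4, at 0.38, lay within 2-fold. Myc was at 0.03 by its brightest probe, but its 3 probes ranged from -2.11 to 0.03. The retinoblastoma relative Rbl1 was the member called higher, at 1.23.

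Adhesion genes of basal keratinocytes were higher as a group, 9 of 16 with none lower and a median of 1.53. Basal cells hold to the basement membrane through integrins and through laminin-332, and the integrins that bind collagen and fibronectin appear on cells that migrate. The laminin receptor subunit Itga3 stood at -0.18 on the control and 2.51 on the treated array, 6.44-fold higher, with 3 probes from 1.31 to 2.69. The collagen receptor subunit Itga2 lay at -3.78 and -1.18, 6.06-fold higher, and the fibronectin receptor subunit Itga5 at -2.51 and 0.03, 5.82-fold higher. The hemidesmosome subunit Itgb4 was at 3.46 in control and saturated in treated skin, a difference of at least 2.32. The laminin-332 chain Lamb3 was 1.78 higher, and the integrin subunits Itgb1 and Itga6 1.87 and 1.69. P-cadherin, Cdh3, was 1.37 higher. Not called were the lineage factor Trp63 at 0.81, the vitronectin receptor subunit Itgav at 0.13, the plakins Plec at 0.45 and Dst at -0.24, and Itgb6 at 0.53.

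Genes of the upper epidermis differed the other way where they could be read. Of 28 members of the suprabasal and cornified list, 18 had no value, 13 of them because they were saturated on both arrays. Of the other 10, 4 were saturated in control only and so could enter only as lower. Among the 6 measured on both arrays, none was higher, 4 were lower and the median was -1.35. Krt2, the keratin of the outermost living layers, was at 5.02 in control and -1.52 in treated skin, 93.1-fold lower, and its probes read -6.54 and -7.15. The caspase that processes filaggrin, Casp14, was saturated in control and at 2.03 in treated skin, at least 8.05-fold lower. Involucrin, Ivl, a cornified envelope precursor, was at 4.35 and 2.37, 3.94-fold lower, and the desmocollin of the upper layers, Dsc1, at 5.04 and 3.70, 2.52-fold lower. Repetin, Rptn, was at least 3.65-fold lower and the transglutaminase Tgm5 was at -1.36. The cross-linking enzymes Tgm1 at -0.28 and Tgm3 at -0.27 were not called, so the difference did not cover every envelope enzyme.

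Enzymes of the lipid barrier and of shedding of the outer layer also lay on the lower side. In the barrier lipid list 9 of 15 were lower and none higher, and 7 of the 11 measured on both arrays (median -1.07 in each case). The lipoxygenase Alox12b, which opens the path to the lipid envelope, was at 4.58 and 2.55, 4.08-fold lower, and its partner Aloxe3 at least 2.51-fold lower. The ceramidase Acer1 was at -1.65, the fatty acid transporter Slc27a4 at -1.52 and the dehydrogenase Sdr9c7 at -1.44. Sphingomyelinase, Smpd1, which frees ceramide, was at least 2.72-fold lower, the sulfotransferase Sult2b1 was at -1.18 and the elongase Elovl6 at -1.07. Among kallikreins, their inhibitors and related proteins, 8 of 16 were lower and none higher (median -1.07), or 5 of the 11 measured on both arrays (median -0.75). The inhibitor Wfdc12 was at 4.21 in control and -1.44 in treated skin, 50.2-fold lower. Serpinb12, saturated in control, was at 1.19 in treated skin, at least 14.6-fold lower, and the kallikrein Klk5, which starts the desquamation cascade, at 2.37 after being saturated, at least 6.78-fold lower. Klk9 was at -2.58, the channel-activating protease Prss8 at -2.04, Wfdc5 at -1.61 and Klk14 at -1.39, and Wfdc21 was at least 6.96-fold lower. The kallikreins Klk6 and Klk7 and the inhibitor Spink5 were saturated on both arrays and have no value.

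Several genes of activated keratinocytes were higher. Of 23 genes of wounded or hyperproliferative keratinocytes, 12 had a value, and 7 were higher and 1 lower (median 1.08). Among the 8 measured on both arrays 4 were higher and 1 lower (median 0.68). Krt6a, the keratin of wound edges, was at 3.80 and 5.55, 3.36-fold higher, and Krt6b at 3.24 and 4.82, 2.98-fold higher. Their partners Krt16 and Krt17 were saturated on both arrays. Treated skin was saturated for the defensin Defb14 and for S100a8, an alarmin of inflamed epidermis and neutrophils, which gives bounds of 4.23-fold and 6.49-fold higher. The iron-binding protein Lcn2 was 1.56 higher, and Tslp, the epithelial cytokine of itch and allergy, 1.05. The member called lower was Fosl1, an AP-1 subunit, at -1.47. Stfa2 at -0.68 and Defb3 at 0.06 were within 2-fold. The keratin pair typical of simple epithelia had larger differences: Krt18 was at -4.15 in control and 1.63 in treated skin, 54.9-fold higher, and Krt8 at -4.90 and -1.61, 9.76-fold higher with probes at 3.29 and 3.32. Other keratins of that list did not follow, with Krt7 at 0.29, Krt13 at -0.10 and Krt78 at least 3.02-fold lower. The list as a whole had 2 of 8 higher, 1 lower and a median of -0.18, which was 1.79 among the 4 measured on both arrays and 0.47 with normexp background correction.

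**Figure D2:**
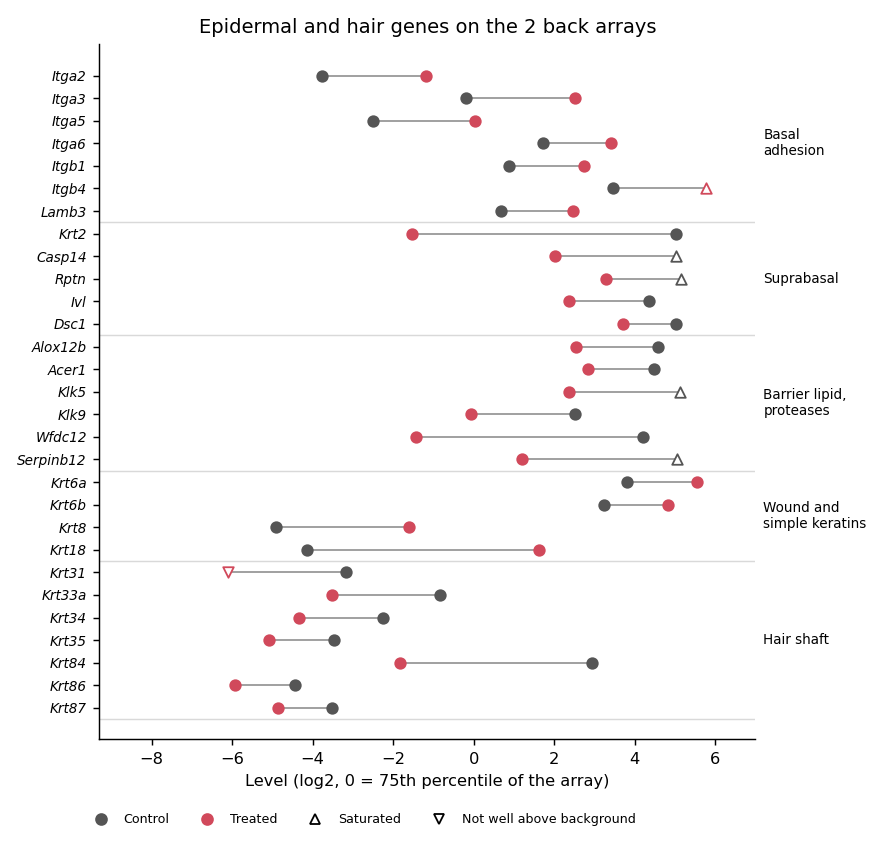
Levels of 29 epidermal and hair genes on the control (grey) and treated (red) back arrays, in log2 relative to each array's 75th percentile. Open triangles mark an array that was saturated (up) or not well above background (down), where the level is a limit. Basal adhesion genes lie to the right on the treated array, and suprabasal, barrier and hair shaft genes to the left, with Krt2 at 5.02 and -1.52.

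Among the hair shaft keratins, the 7 with a value were all lower, with a median of -2.09, against 12.6% of all genes called lower. With normexp background correction 4 of the 7 were called lower, with a median of -1.22, and only 1 member had a signal of 200 on both arrays. Krt84 was at 2.94 in control and -1.83 in treated skin, 27.3-fold lower. Krt33a was at -0.84 and -3.53, 6.45-fold lower, and Krt31 at -3.16 and not well above background, at least 7.73-fold lower. Krt34, Krt35, Krt86 and Krt87 were 4.25-, 3.03-, 2.83- and 2.54-fold lower. The summed level of the list's 8 members was 8.80 times the 75th percentile on the control and 0.516 times on the treated array. Krt84 held most of the control sum and was the only member with a signal of 200 on both arrays. The sum therefore reflects mainly that gene and says little of the other members. Whether the Krt84 RNA came from hair shafts in this skin was not tested. Keratin-associated proteins, the matrix between keratin filaments of the hair, were mostly lower too: of 27 with a value, 17 were lower, 10 within 2-fold and none higher, with a median of -2.36. Krtap6-5 was at 0.03 and -5.17, the largest difference among members measured on both arrays at -5.20, and Krtap13 at -0.35 and -5.52. Krtap3-3, at -0.96 in control and not well above background in treated skin, has a bound of -5.17 and may differ by more. The highest difference in the family was Krtap15 at 0.69, and Krtap19-1, among the brighter ones at 1.90 and 1.82, differed by -0.08. These genes form families of near-identical members, so that probes may read more than 1 of them, which was not tested.

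The inner root sheath and matrix lists were mixed. Among root sheath genes, Krt27 and Krt25 were at -1.78 and -1.42, Krt26 was at least 2.08-fold higher from below background, Krt71 was at -0.58 and the companion layer keratin Krt75 at 0.70. Of 17 regulators of the hair matrix 2 were higher and 5 lower (median -0.87). The homeobox genes Msx1 and Dlx3, which act in hair shaft differentiation, were at -0.06 and 0.57 in control and at -2.44 and -1.74 in treated skin, 5.19- and 4.95-fold lower. The transcription factors Sp6 and Foxq1 were at -1.86 and -1.66, and Msx2 at -1.15. Foxn1, whose loss makes nude mice, at 0.25 and Hoxc13, a direct regulator of hair keratins, at -0.39 were within 2-fold. Wnt10a, a ligand of follicle growth, went the other way, at 1.96 and 4.00, 4.10-fold higher, and so did Lef1, a nuclear partner of beta-catenin, 1.52 higher at low levels of -6.22 and -4.70. Shh, the ligand of matrix growth, was not well above background on either array.

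Markers of the follicle stem cell compartment were spread around 0: 5 of 24 were higher and 3 lower (median 0.02). The surface protein Cd34, used to sort bulge cells, was at 1.61 and 2.75, 2.20-fold higher. The transcription factor Runx1, which promotes stem cell activation, was 1.64 higher, the Wnt antagonist Wif1 1.40 and Fgf18, a signal of the resting phase, 1.28. The receptors Lgr5 at -0.34 and Lgr6 at 0.24, the factors Lhx2 at -0.11 and Nfatc1 at -0.73, and the growth brake Lrig1 at 0.16 were within 2-fold. Sox9 was at 0.01 by its brightest probe, while its 3 probes ranged from -3.99 to 0.29 and do not give 1 answer. The receptor Vdr, needed for hair cycling, was at -1.16, and Bmp6, a quiescence signal, at -1.12. Npnt, a matrix protein of the bulge, was at least 2.25-fold lower. Aldh1a3, which makes retinoic acid, was the largest measured difference of the list, at 1.39 and 5.37.

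Signals of the hair cycle held a few large differences in a list centred near 0 (4 of 28 higher, 5 lower, median -0.21). Inhba, the activin A subunit that is induced in wounds, was at -0.70 in control and 3.03 in treated skin, 13.3-fold higher, while its antagonist Fst was at 0.50. Wnt3a was at -3.08 and 0.59, 12.7-fold higher. The Wnt target Axin2, a readout of canonical Wnt signalling, was at 0.05 and 0.18, a difference of 0.13. Fgf22, an epidermal fibroblast growth factor, was at -0.54 and -4.73, 18.3-fold lower, and Fgf5, the signal that ends hair growth, at -3.48 and -5.29, 3.51-fold lower. Of the transforming growth factors, Tgfb1 was 1.14 higher and Tgfb2 was at -1.29, while Bmp2 was at -1.38 and Wnt7b at -1.13. Noggin, Nog, at -0.63 and Sostdc1 at -0.67 were within 2-fold. Of 15 dermal papilla markers 7 were not well above background on either array, among them Corin, Sox2 and Rspo3. Of the 8 with a value only Crabp1, at 1.52, was called.

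Ligands of the EGF receptor family did not move together. Neuregulin, Nrg1, was at -3.37 in control and 0.71 in treated skin, 16.9-fold higher, with 3 probes from 2.54 to 4.07. Epiregulin, Ereg, was at 2.24 and -1.29, 11.6-fold lower, and betacellulin, Btc, was at -1.56. Heparin-binding EGF, Hbegf, at 0.75, amphiregulin, Areg, at 0.52 and Tgfa at 0.08 were within 2-fold. Among the receptors, Erbb4 was at -2.94 and not well above background, at least 9.09-fold lower, while Erbb2 and Erbb3 differed by 0.41 and 0.01. The list had 1 of 16 higher and 3 lower (median 0.07).

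Several secreted hormones and growth factors differed by a large factor. Stanniocalcin 2, Stc2, a glycoprotein induced by stress, was at -5.73 and 0.73, 88.0-fold higher. Prl2c3, a proliferin of the prolactin family, was at -5.97 and 0.45, 85.4-fold higher, and its near-identical relatives may be read by the same probe, which was not tested: Prl2c5, not well above background in control, was at least 476-fold higher. Neuromedin U, Nmu, a peptide of gut and brain that also acts on mast cells, had the most negative difference among genes measured on both arrays, at 3.04 in control and -3.88 in treated skin, 121-fold lower. The angiogenic factor Vegfa was at 2.89 and 4.52, 3.08-fold higher, with 3 probes from 1.56 to 1.70. Adrenomedullin, Adm, was 1.77 higher and Angptl4 1.36, both induced by hypoxia. Igfbp3, which binds insulin-like growth factors, was at 4.71 and 2.23, 5.58-fold lower, and Igf2 was 1.92 higher. Ccn1 and Ccn2, targets of YAP, were at 0.60 and 0.79. In all, 7 of 18 were higher and 3 lower (median 0.65).

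Chemokines that draw neutrophils were among the largest differences on the arrays. CXC chemokines with an ELR motif act on the receptor Cxcr2 of neutrophils. Cxcl3 was at -5.45 in control and 3.59 in treated skin, 529-fold higher and the largest difference among genes measured on both arrays. Cxcl1 was at -1.92 and 2.42, 20.2-fold higher, and Cxcl2 at -2.56 and 0.62, 9.05-fold higher. Cxcl5 and Ppbp were not well above background in control and at -0.35 and 0.67 in treated skin, at least 73.3-fold and at least 149-fold higher. These 5 carry the ELR motif. The platelet chemokine Pf4 was at -2.08 and 2.58, 25.3-fold higher. The chemokines of the interferon-induced branch, which act on T cells, lay on the other side: Cxcl10 was at 1.03 and -0.32, 2.55-fold lower, and Cxcl9 at -2.46 and not well above background, at least 12.6-fold lower. Cxcl12 at -0.94, Cxcl14 at 0.05 and Cxcl16 at -0.09 were within 2-fold. The receptor Cxcr4 was 2.20 higher by its brightest probe, with the other at 0.88, and Cxcr2 itself was at -0.79, with the other probe at 0.17. Of 14 members 7 were higher and 3 lower. The list median of 1.13 was -0.47 with spike-in scaling and 0.05 among the 11 genes measured on both arrays.

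A site for NF-kB is known in the promoters of the Gro-type chemokines. RefSeq promoters (GRCm38.p6) matched 6 of the 7 members called higher. The letters GGGA and TTCC with 2 bases between them were searched on either strand in the 150 bases before the start. They were found in 3 of the 6, Cxcl1, Cxcl2 and Cxcl3, against 0.77% of all genes in the table. Among all 16 listed members with a promoter, called or not, 3 had them (18.8%). Among CC chemokines called higher, 0 of 6 with a promoter had them. The promoter of Cxcl3, at chr5:90785951-90786100 on the plus strand, and that of its neighbour Ppbp, at chr5:90768368-90768517 on the plus strand, are printed to show a promoter with and one without these letters, which are in capitals and overlap on both strands.
Cxcl3: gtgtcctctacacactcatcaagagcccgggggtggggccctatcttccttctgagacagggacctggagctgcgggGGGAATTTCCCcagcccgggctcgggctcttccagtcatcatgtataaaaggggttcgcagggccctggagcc
Ppbp: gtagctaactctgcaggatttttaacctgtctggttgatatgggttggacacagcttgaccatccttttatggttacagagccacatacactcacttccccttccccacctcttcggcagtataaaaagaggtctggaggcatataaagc
Both genes were among the largest differences, so the letters were not shared by all members that were higher. Cxcl5 had no entry in the table.

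CC chemokines draw monocytes, dendritic cells and lymphocytes, and 9 of 22 were higher against 1 lower (median 0.90). With normexp background correction 5 of 21 were higher (median 0.78), and among the 11 with a signal of 200 on both arrays 4 were (median 0.21). Ccl3 was at -1.40 and 3.85, 38.2-fold higher. Its relative Ccl4 was at 0.45 and 4.35, a difference of 3.91, and Ccl9 at -2.90 and 0.83, 13.3-fold higher. The monocyte chemokine Ccl2, by contrast, was at 1.07 and 0.38, a difference of -0.70, and Ccl7 at 0.21. Ccl17, a ligand of Ccr4 made by dendritic cells, was 1.96 higher at low levels, Ccl6 1.57 and the eosinophil chemokine Ccl24 1.33. The chemokines of resting epidermis, Ccl20 at -0.25 and Ccl27a at -0.35, were within 2-fold. The receptor Ccr1, shared by Ccl3 and Ccl9, was not well above background in control and at least 3.42-fold higher.

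Among 19 genes of the interleukin-1 family 9 were lower and 1 was higher (median -0.47). Il1f6, an IL-36 cytokine of the epidermis, was at 4.68 in control and 0.83 in treated skin, 14.4-fold lower, and the related Il1f8 at 3.25 and 0.95, 4.91-fold lower. Il1a, which keratinocytes store as an alarm signal, was at 3.39 and 0.84, 5.86-fold lower, with probes at -2.55 and -1.99. Il1f10 was at 0.89 and -1.86, 6.76-fold lower, and Il1f9 at -1.43. Il18 was at -2.23 and Casp1, the protease that releases it, at -1.42. Il1b, the member made by myeloid cells, was at 2.72 and 3.03, a difference of 0.31. The antagonist Il1rn was saturated in control and at least 2.27-fold lower, and the decoy receptor Il1r2 was at -1.35. The receptor Il18r1 was the member called higher, at 1.90.

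Among cytokines of the IL-6, IL-17 and IL-20 families, 4 of 20 genes were higher and 1 lower (median 0.57, or -0.01 with spike-in scaling, with 3 higher and 4 lower). Il24, a keratinocyte cytokine that acts through IL-20 receptors and STAT3, was at -3.50 and 2.33, 56.9-fold higher, with probes at 5.67 and 5.83. Il23a, the p19 subunit of IL-23, was at -4.74 and -0.89, 14.4-fold higher, and Il19 at -4.44 and -1.89, 5.87-fold higher. Clcf1, an IL-6 family ligand, was 2.83-fold higher. Il6 itself was at -4.06 and -3.54, and Osm at -3.27 and -2.94, both within 2-fold. Il20, Il17a and Il4 were not well above background on either array. On the receiving side, Stat3 at 0.71 and its inhibitor Socs3 at 0.62 were within 2-fold, the receptor chains Il20ra and Il20rb at -0.03 and -0.68, and the shared chain Il6st at -1.02.

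Of 24 NF-kB pathway genes 6 were higher and 1 lower (median 0.23). The granulocyte growth factor Csf3 was at -5.15 and -1.93, 9.35-fold higher. The endotoxin receptor Tlr4 was at -5.71 and -2.71, 7.99-fold higher, and its coreceptor Cd14 at -1.90 and 0.50, 5.28-fold higher. Pentraxin, Ptx3, was at least 2.91-fold higher, and the hyaluronan-binding protein Tnfaip6 1.46. Tnf was at -0.88 and -0.07, a difference of 0.81, and the adhesion molecule Icam1 at 0.47. The adaptor Traf1 was 1.14 higher. The subunit Rel was at -1.92, and Rela at -0.93 and Nfkb2 at -0.85 were within 2-fold. In the prostaglandin and leukotriene list (4 of 20 higher, 5 lower, median -0.21) the synthase Ptges was 1.28 higher and the receptor Ptger2 at least 7.68-fold, while the receptors Ptger3 and Ptger4 were at -1.28 and -1.14. The degrading enzyme Hpgd and the phospholipase Pla2g4e were 2.45- and 2.14-fold higher, and the inducible cyclooxygenase Ptgs2 was at 3.34 and 3.43. The constitutive enzyme Ptgs1 was at -1.40 and the platelet-type lipoxygenase Alox12 at -2.59.

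In the interferon list 8 of 25 genes were lower and 1 was higher (median -0.11), and with normexp background correction 4 of 24 were lower and none higher. Irf7, the factor that amplifies type I interferon, was at -1.42 and -4.46, 8.21-fold lower. Isg15 was at -1.63, Ifit1 at -1.64 and the guanylate-binding protein Gbp2 at -1.38. The RNA sensor Ifih1 had probes at -1.58 and -1.57, and the Isg15 protease Usp18 was at -1.32. The signalling genes Stat2 at 0.09 and Irf1 at 0.39 were within 2-fold, as were the proteasome subunits Psmb8 and Psmb9. The DNA sensor Zbp1 was the member called higher, at 1.22.

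**Figure D3:**
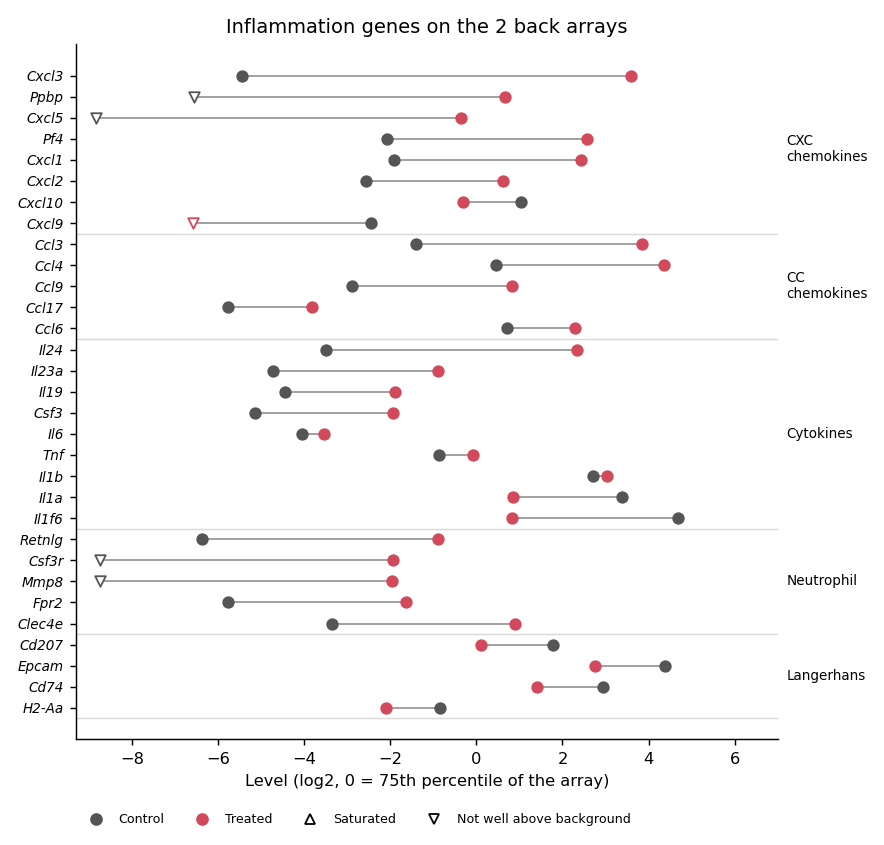
Levels of 31 genes of inflammation on the control (grey) and treated (red) back arrays, in log2 relative to each array's 75th percentile. Open triangles pointing down mark an array where the gene was not well above background. Chemokines that attract neutrophils and neutrophil markers lie to the right on the treated array, while Cxcl9, Cxcl10, Il1a, Il1f6 and the 4 Langerhans genes lie to the left.

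Neutrophil markers were mostly higher. Of 24 members, 15 were well above background on the control and 19 on the treated array, and of 18 with a value 14 were higher and 1 lower (median 2.27). Among the 12 measured on both arrays 8 were higher and 1 lower (median 1.75). The summed level went from 48.1 to 120 times the 75th percentile, with 1 member saturated on the control and 2 on the treated array. S100a8, at 3.11 and saturated at 5.81, weighs heavily in it and is also made by inflamed epidermis. The sum therefore does not measure neutrophils alone. Retnlg, a resistin-like protein of neutrophils, was at -6.37 and -0.90, 44.2-fold higher. The receptor for granulocyte growth factor, Csf3r, and the neutrophil collagenase Mmp8 were not well above background in control and at -1.95 and -1.97 in treated skin, at least 24.2- and 23.9-fold higher. Hdc, which makes histamine, was at -3.64 and 0.21, 14.4-fold higher. The formyl peptide receptor Fpr2 was 17.7-fold and Fpr1 at least 15.5-fold higher, and the lectins Clec4e and Clec4d 19.1- and 11.8-fold. The member called lower was the decoy receptor Il1r2, at -1.35, which keratinocytes also make. Granule genes that are read in bone marrow precursors gave little signal: Camp, Ngp and Elane were not well above background on either array and Mpo differed by -0.16, although lactoferrin, Ltf, was at least 2.94-fold higher. How much of the chemokine difference came from neutrophils and how much from skin cells was not tested.

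Of 23 macrophage markers 10 were higher and 1 was lower (median 0.86). The hemoglobin scavenger receptor Cd163 was not well above background in control and at -1.23 in treated skin, at least 40.0-fold higher. The mannose receptor Mrc1 was at -4.53 and -1.19, 10.2-fold higher, and the Fc receptors Fcgr3 and Fcgr1 6.90- and 3.71-fold. Lysozymes Lyz1 and Lyz2 were 2.19 and 2.17 higher. The lineage markers Adgre1, at 0.31, and Csf1r, at -0.62, and the complement chains C1qa, C1qb and C1qc, at 0.04, -0.02 and 0.86, were within 2-fold. Arg1, an enzyme of repair macrophages that keratinocytes also express, was at -1.32. Chil3, a lectin of activated macrophages, was 1.85 higher.

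Several markers of antigen-presenting cells were lower. Of 18 Langerhans and dendritic cell genes 10 were lower and none higher (median -1.12), and with normexp background correction 6 were lower (median -0.64). Langerin, Cd207, which marks Langerhans cells, was at 1.77 and 0.10, 3.18-fold lower, and Epcam, their adhesion molecule, which hair follicle cells also carry, at 4.39 and 2.75, 3.10-fold lower. The class II genes H2-DMa, H2-Oa, H2-Aa and H2-Ab1 were at -1.65, -1.34, -1.25 and -1.20, their chaperone Cd74 at -1.55 and the class II activator Ciita at -1.05. The migration receptor Ccr7 at 0.75 and Cd86 at 0.02 were not called. The summed level of the list was 83.4 and 39.4 times the 75th percentile, with 1 member saturated on the control array. Epcam, at 4.39 in control, weighs more in it than Cd207 at 1.77. The sum therefore does not measure Langerhans and dendritic cells alone. Among 22 T and NK cell markers none was higher and 8 were lower (median -0.53), but this count rested on the background correction and on dim probes. With normexp background correction 1 of 20 was lower (median -0.27), and so was 1 of the 5 with a signal of 200 on both arrays (median -0.11). Cd4 stood apart at 1.51 and -3.33, 28.8-fold lower. The receptor chains Cd3g and Cd3d were at -1.41 and -0.97, Cd8a at -1.52, the cytotoxic granule gene Nkg7 at -1.36 and the chemokine Xcl1 at -2.29, while Cd5 at -0.26, Lat at -0.21 and Thy1 at 0.42 differed little. B cell and mast cell markers were largely not well above background: 6 of 10 and 7 of 13 on both arrays.

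Other tissues of the skin were read from their own lists. In the endothelial list 6 of 15 were higher and 1 lower (median 0.58). Only 2 members had a signal of 200 on both arrays, of which none was higher and 1 was lower (median -0.83). Pdpn, a glycoprotein of lymphatic vessels that activated keratinocytes and macrophages also carry, was not 1 of these. It was at -5.41 and -0.66, 27.0-fold higher with its probes at 4.75 and 4.95. Lyve1, of lymphatics and some macrophages, was 2.10 higher. The vascular receptor Tie1 was at least 5.94-fold higher, Egfl7 was 2.47 and the junction protein Cdh5 1.91 higher, but Pecam1 at 0.58, Cldn5 at 0.30 and Vwf at -0.60 were not called, and the receptor Flt1 was at -1.39. Of 19 skeletal muscle genes 6 were higher and 1 lower (median 0.35), led by the troponin Tnni2 at -2.03 and 1.73 and the myosin light chain Myl1 at -5.24 and -2.09, and muscle actin Acta1 was at -0.17. The list's summed level was 2.71 and 5.86 times the 75th percentile, and Tnni2 made up most of that rise. Among the 6 members with a signal of 200 on both arrays 1 was higher and 1 lower (median 0.28). The part of the muscle layer in these samples was not tested. Adipocyte markers had 5 of 15 higher and 2 lower (median 0.41). The insulin-regulated glucose carrier Slc2a4 was at -1.82 and 1.63, and Ucp1, the uncoupler of brown fat, at 0.02 and -3.32. Cidea was 1.82 and the lipase gene Pnpla2 at -1.71, with Cidec at 1.21, perilipin Plin1 at -0.03 and adiponectin, Adipoq, at least 1.63-fold higher at the edge of background. Sebaceous markers had 4 of 14 higher and 1 lower (median 0.07): the lipid droplet protein Plin2 was at 1.25 and 4.52, 9.64-fold higher, the cholesterol esterifier Soat1 2.31 and the elongase Elovl3 1.64 higher, and the desaturase Scd1 at -0.56. Smooth muscle genes had 2 of 11 lower and none higher (median -0.28), namely Cnn1 at -1.57 and Myh11, at least 3.42-fold lower. Melanocyte and Schwann cell genes had 3 of 12 higher and none lower (median 0.10), Mitf at 1.78 and Tyrp1 at 1.55 among them. Of the red cell list 1 of 5 was higher and 1 lower (median 0.18), with a lowest difference of -2.36. The globins Hbb-bt and Hba-a1 were at 1.17 and 0.18. The list's summed level was 11.9 times the 75th percentile on the control and 5.33 times on the treated array. Levels of the globins were 0.13 and 1.30 for Hbb-bt and -0.49 and -0.31 for Hba-a1. Neither was lower on the treated array, so the lower sum came from other members.

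Enzymes and glycoproteins of matrix remodelling were higher in many cases, and the dermal collagens were not. Of 23 metalloproteinases and inhibitors 9 were higher and 1 lower (median 0.50), or 6 and 1 of the 20 measured on both arrays (median 0.08). The collagenases Mmp1a, at -4.37 and 0.14, and Mmp13, at 1.84 and 5.64, were 22.7- and 14.0-fold higher. The stromelysin Mmp3 was at -0.05 and 3.29, 10.1-fold higher, and Mmp10, of migrating keratinocytes, 1.68. The macrophage elastase Mmp12 was at least 4.72-fold higher, and the gelatinase Mmp9 and the membrane-bound Mmp14 2.94- and 2.52-fold. Adam8, a protease of myeloid cells, was saturated in treated skin and at least 2.87-fold higher. The gelatinase Mmp2, made by fibroblasts, was at -1.01, and the inhibitors Timp1, Timp2 and Timp3 were at 0.50, -0.44 and -0.53. With spike-in scaling the list had 7 higher, 7 lower and a median of -0.04. The AP-1 letters TGANTCA were searched in the 150 bases before the start. They lay in 4 of the 8 members called higher with a RefSeq promoter, Mmp1a, Mmp3, Mmp10 and Mmp13, against 4.27% of all genes. Among all 18 listed members with a promoter, called or not, 5 had them (27.8%).

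In the wound matrix list 9 of 23 were higher and 2 lower (median 0.66). Osteopontin, Spp1, was at -1.27 and 3.60, 29.3-fold higher. The urokinase receptor Plaur was at -0.75 and 1.27, 4.06-fold higher, while urokinase, Plau, was at 0.92. Tenascin C, Tnc, was at -1.54 and 2.38, 15.1-fold higher. The hyaluronan synthases were unequal, with Has3 and Has2 2.68 and 1.68 higher and Has1 at -1.04. Thrombospondin 2, Thbs2, was at -2.88 and -0.71, 4.47-fold higher. Periostin, Postn, at 0.49, fibronectin, Fn1, at 0.65 and Sparc at 0.07 were within 2-fold. The fibroblast list (5 of 17 higher, 2 lower, median 0.25) divided by molecule: decorin, Dcn, was at -3.43 and -0.50, 7.63-fold higher, fibulin, Fbln1, 4.01-fold and lumican, Lum, 2.82-fold, while Col1a1 was at -1.29 and Col5a1 at -1.52, and Col1a2 and Col3a1 were at -0.89 and -0.44. A second probe of Col5a1 read 0.76.

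Antioxidant genes did not move one way: of 36 NRF2 targets and antioxidant enzymes 11 were higher and 6 lower (median -0.02). The transferase Gsta4, which removes products of lipid peroxidation, was at -1.28 and 3.28, 23.6-fold higher. The metal-binding protein Mt1 was 2.68 higher, glutathione reductase, Gsr, 2.12 by 3 probes from 2.12 to 2.37, and the quinone reductase Nqo1 1.43. Slc7a11, the cystine importer, was 2.04 higher, and extracellular Sod3 at least 4.06-fold lower. Heme oxygenase, Hmox1, the best-known oxidative stress gene, was at 4.32 in control and 2.69 in treated skin, 3.09-fold lower, and sulfiredoxin, Srxn1, at 4.80 and 2.50, 4.93-fold lower with probes from -2.31 to -2.27. Catalase, Cat, was at -1.38, and the transferases Gsta2 and Gsta1 at -2.33 and -1.86, which are close relatives whose probes may not tell them apart. Gclc at 0.06, Prdx1 at -0.09 and the regulator Nfe2l2 at 0.44 were within 2-fold, while its inhibitor Keap1 was 1.70 higher. Both directions thus occurred within the list.

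Heme and iron genes bear on the agent itself, since it enters this pathway. Of 29 members 5 were higher and 4 lower (median 0.20). Abcg2, which exports protoporphyrin, was at -0.05 and 2.21, 4.76-fold higher, with probes at 2.12 and 2.25. Of the synthesis enzymes, Alas1, the rate-limiting step, was at -1.41, Urod was 1.25 higher, and ferrochelatase, Fech, was at 0.47 and Cpox at 0.37. Slc15a1, a peptide carrier that can take up aminolevulinic acid, was at -1.57, and biliverdin reductase, Blvra, was 1.24 higher. The iron exporter Slc40a1 was at 3.13 and 0.47, 6.32-fold lower, the phagosome iron pump Slc11a1 at -5.18 and -1.64, 11.6-fold higher, and the iron importer Tfrc at 0.20.

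The amino acid and unfolded protein responses had 13 of 23 genes higher and 3 lower (median 1.22). The mitochondrial folate enzymes Aldh1l2 (-2.52 and 0.23) and Mthfd2 (0.68 and 2.43) were 6.74- and 3.36-fold higher. The ATF4 target Trib3 was 2.05 higher and the transporter Slc7a5 2.04. In the serine pathway, Phgdh was 1.36, Psat1 1.22, Psph 1.24 and Shmt2 1.57 higher, and asparagine synthetase, Asns, 1.58. Atf4 itself was at -0.45, and Atf3 and Sesn2 were at -1.18 and -1.36. The chaperone Pdia4 was 1.55 higher and Dnajb9 at -1.49. Of chaperones, 5 of 20 heat shock genes were saturated on both arrays, and of 14 with a value 1 was higher and 3 lower (median -0.52), with the small heat shock protein Hspb8 at -1.80, Dnajb4 at -1.52 and mitochondrial Hspd1 at 0.41.

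Immediate early genes, which respond fast to most stimuli, had 10 of 19 members lower and none higher at 48 h (median -1.06). Fosb was at 0.79 and -1.76, 5.85-fold lower, Nr4a2 at 0.27 and -1.68, 3.87-fold, Arc at 4.75 and 2.83, and Jun at 4.32 and 2.80, 2.87-fold. Fos at -0.98 and Egr1 at -0.63 were within 2-fold. The p53 and apoptosis list had 2 of 25 higher and 5 lower (median -0.16). The pore-forming Bax was 1.09 higher, while Bcl2, which blocks apoptosis, was at -1.15, Mdm2, a p53 target, at -0.16 and Trp53 at -0.70. Among glycolysis and hypoxia genes 3 of 17 were higher and none lower (median 0.82). The lactate exporter Slc16a3 was at 1.43 and 5.49, 16.7-fold higher, Ankrd37 and Pfkfb3 were 1.87 and 1.24 higher, and 8 members, Ldha and Pgk1 among them, were saturated on both arrays. Retinoid genes had 1 of 20 higher and 5 lower (median -0.43), or 1 and 3 of 19 with normexp background correction (median -0.11), with Dhrs9 at -1.45 and the plasma carrier Rbp4 at least 2.75-fold lower. Clock genes had 1 of 19 higher and 6 lower (median -0.67): Nr1d1, a repressor that cycles strongly, was at 1.54 and -0.80, 5.06-fold lower by its brightest of 3 probes, which ranged from -2.34 to -0.77, Tef was at -1.78, Rora at -1.70, Cry2 at -1.55 and Bhlhe40 1.34 higher. The hour at which skin was taken is not given in the labels.

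**Figure D4:**
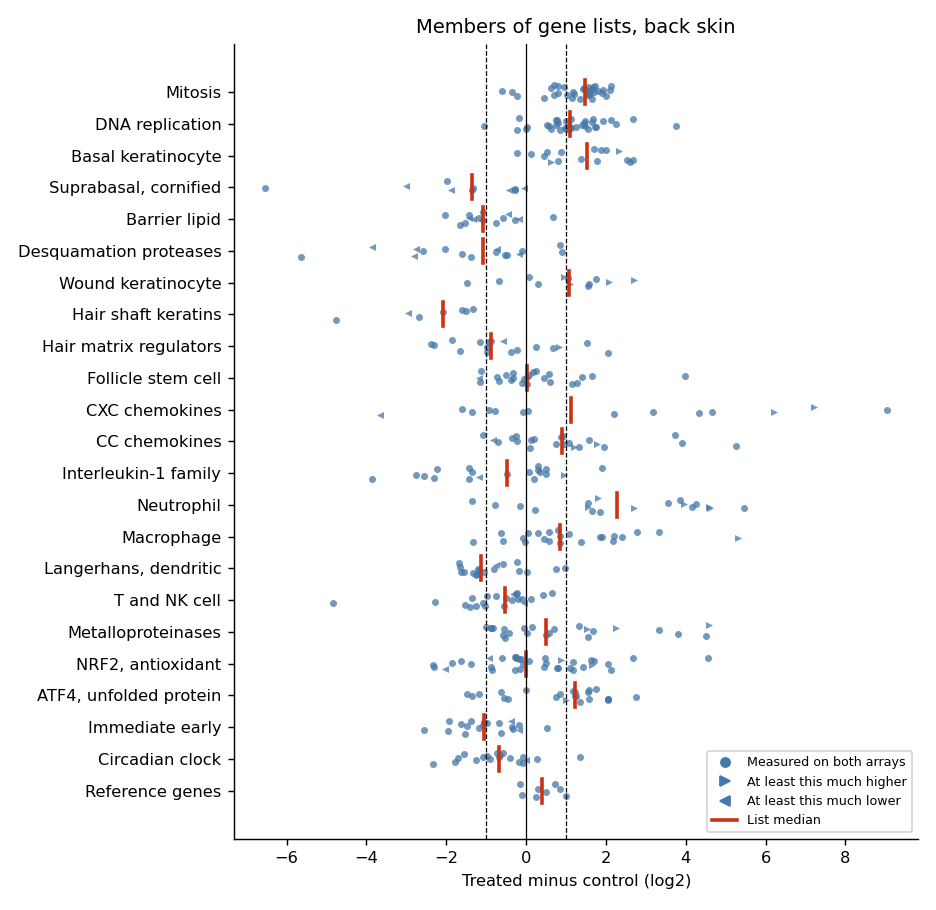
Treated minus control difference (log2) of the members of 23 gene lists, 1 mark per gene. Triangles are bounds and point the way the true value lies, red bars are list medians and dashed lines mark 2-fold. Mitosis (median 1.48) and basal keratinocyte genes (1.53) cluster to the right, hair shaft keratins (-2.09) and suprabasal genes (-1.35) to the left, and antioxidant genes (-0.02) spread both ways.

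Reference genes give a view of the scale. Of 8 members with a value none was called. Differences included 0.72 for Gusb, 0.51 for Actb, 0.29 for Ppia, 0.25 for Hprt, -0.11 for Sdha and -0.16 for Tbp. Gapdh was at 4.72 and 5.72 and just under the 2-fold line. The other 6, Rplp0, B2m, Ywhaz, Rpl13a, Pgk1 and Eef1a1, were saturated on both arrays. The median of 0.40 turned to -0.13 with spike-in scaling, so the direction of this list rests on the scale chosen.

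Several probes of a gene give a check that a single probe does not. Of 4185 genes with 2 or more measured probes, 916 were called. All probes had the same sign in 831 of them (90.7%) and all were past 2-fold in 511 (55.8%). Of the genes named in this report, called or not, 122 had 2 or more such probes, and 13 of these had probes of both signs. Only some of the 13 are marked where they are named, and the others are given by their brightest probe. The largest differences in which every probe was past 2-fold in the same direction, given as the median over probes, were led by Cyp2a5, a cytochrome induced in stressed tissue, at 5.86, or 58.0-fold. It was followed by Il24 at 5.75, Pdpn at 4.85 and the metalloreductase Steap1 at 4.54. Next came the interferon-inducible Ifi209 at 3.70, the desmocollin Dsc2 at 3.63, the desaturase relative Fads3 at 3.47, Nrg1 at 3.45 and the lipid droplet protein Hilpda at 3.40. The myeloid receptor Pirb was at 3.36, Krt8 at 3.30, the transcription factor Zeb2 at 3.28, Ankrd33b at 3.18, Nav1 at 2.99 and the actin-binding Cald1 at 2.97. The size could still differ between probes, which ran from 1.76 to 3.97 for Dsc2. Dsc2 is the desmocollin of simple and basal epithelia, and Dsc1, that of the upper epidermis, was at -1.34.

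On the lower side, after Krt2 at -6.84, came the flavin monooxygenase Fmo2 at -4.49 and the metallothionein of stratified epithelia, Mt4, at -4.03. Plpp1, a lipid phosphatase, was at -3.68 and Insc, which orients the spindle in dividing epidermal cells, at -3.50. Phf24 was at -3.37, Tmem177 at -3.26, Ankrd44 at -3.20, Cited4 at -3.19 and Ypel1 at -3.18. Probes of Phf24 ran from -4.25 to -2.49 and those of Ypel1 from -3.28 to -1.69. The channel-associated Kctd12 was at -3.06, the ubiquitin ligase Lnx1 at -2.97, Lrrc28 at -2.89, creatine kinase, Ckb, at -2.88 and Nlrp10, a sensor of the epidermis, at -2.87. Mt1 and Mt4, members of the same family, thus lay on opposite sides.

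**Figure D5:**
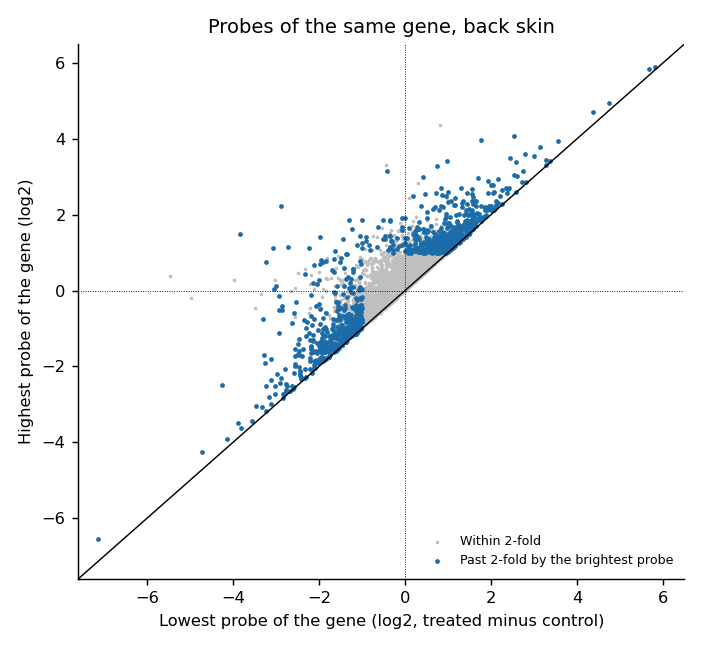
Lowest against highest probe difference (treated minus control, log2) of each gene with 2 or more probes measured on both back arrays. Points on the diagonal line have probes that agree, and blue points are past 2-fold by the gene's brightest probe. Probes shared a sign in 831 of 916 called genes, and the blue points left of the dotted vertical line and above the dotted horizontal line did not.

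Tail skin received the same cream with 10 J/cm2 of light, so skin and dose differ together and cannot be told apart, and each skin has 1 pair of arrays. The tail arrays were further apart in signal than the back arrays. Their 75th percentile was 7261 in control and 908.8 in treated tail, and 1668 and 330 genes were saturated. All tail values rest on scaling across that gap. In the tail pair 2 of 33 mitosis genes were higher and 2 lower (median 0.07), against 25 of 35 higher in the back. Of 13 basal keratinocyte genes 7 were lower in the tail and none was higher (median -1.08). Of 28 suprabasal genes on the array only 5 had a value in the tail, of which 3 were higher and none lower (median 1.34). Neutrophil markers had 12 of 16 higher in the tail (median 1.97) and 14 of 18 in the back (median 2.27). The background differed, since 27.2% of tail genes were called higher and 6.55% lower. The difference between the skins was not tested.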

How the data were processed

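RNA (200 ng, labelled with Cy3) was hybridised to 1-colour whole-genome mouse arrays, 1 array per group, all on 1 slide, so the position on the slide and the group cannot be told apart. The deposited scanner files hold spot intensities, background-corrected by Agilent Feature Extraction 10.5.1.1 per the file headers (10.7 per the submitters' processing notes). The authors' deposited table holds log2 values centred per probe. Its back difference lay above that of the unscaled signals, outlier spots kept, by a constant of 0.63. For 99.7% of 41174 probes this held within 0.001. The 75th percentile scaling shifts the back difference by 0.63 as well, which fixes the direction and, to these digits, the scale. The centring is not stated in the sources used here. The medians of its columns are -0.28 for control tail, 0.10 for treated tail, -0.03 for control back and 0.08 for treated back.

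Control spots and outlier spots were left out, repeat spots averaged, and log2 intensities set to each array's 75th percentile. A gene took its brightest probe. Probe names were matched to RefSeq symbols for 24375 probes (59.2%). A bound sets the bright signal against the higher of the lowest signal well above background (19.86 on the control and 17.28 on the treated back array) and the dim probe's own. Normexp used median and not, as planned, mean spot intensities, with an offset of 50. Python 3.11.15 and limma 3.58.1 in R 4.3.3 were used. The members and gene lists were chosen with earlier results of these data known. Named genes are mainly those with the largest differences in each list (up to 8), the 15 in each direction with several probes, all past 2-fold, sex-linked and reference genes, and the Krtap family. Some of the largest were left unnamed, such as the highest of the p53 list at 1.59, the highest retinoid gene at 1.27 and the lowest skeletal muscle gene at -1.29. Other members within 2-fold were named to show the spread, some after their values were seen, as was Prl2c5. Some items are not reported here.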

Additional observations from a re-analysis of the deposited data

Results flagged for a closer look

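Of 12038 genes with a value in both skins, 119 were 2-fold or more higher in treated back and lower in treated tail, and 347 were the reverse. These counts are to be read against the shares of all genes called. In the back 13.6% were higher and 12.6% lower, and in the tail 27.2% and 6.55%. Whether the counts depart from what these shares alone would give was not tested. Of the genes named above, 376 had a value in both skins, and 50 of these had opposite calls, 23 higher and 27 lower in the back. Many of the named genes were picked for large differences in the back. The difference between the skins was not tested, each skin has 1 pair of arrays, and the light dose was 2.5 J/cm2 on the back and 10 J/cm2 on the tail. The tail calls also rest on scaling 2 arrays with 75th percentiles of 7261 in control and 908.8 in treated tail. Values are log2 differences, treated minus control, the back before the tail.

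The genes below are those with opposite calls and do not stand for their lists. In the tail, 7 of 13 adhesion genes of basal keratinocytes were lower and none higher (median -1.08): Itga3 was at 2.69 and -1.08, Itgb1 at 1.87 and -2.32, Lamb3 at 1.78 and -1.34, and Itga6 at 1.69 and -2.05. In the tail the metalloproteinase list had 7 of 21 members higher and 3 lower (median 0.49), and of wound matrix genes 6 of 25 were higher and 9 lower (median -0.50). Tnc was at 3.92 and -2.22, Mmp13 at 3.81 and at most -6.57, Mmp3 at 3.34 and -4.34, and Mmp10 at 1.68 and -2.64. Thbs2 was at 2.16 and -2.53 and the hyaluronan synthase Has2 at 1.68 and -2.34. Among cytokines, Cxcl1 was at 4.34 and -2.06, Cxcl2 at 3.18 and at most -2.83, Il23a at 3.85 and at most -1.48, and Tgfb1 at 1.14 and -1.02. Other genes higher in the back were the Fc receptor Fcgr3 at 2.79 and -1.57, the porphyrin exporter Abcg2 at 2.25 and -1.94, Adm at 1.77 and -2.39, and Vegfa at 1.62 and -1.08. Wif1 was at 1.40 and -1.80, Bhlhe40 at 1.34 and -1.57, and Pfkfb3 at 1.24 and -1.49. The kinesin Kif11 was at 1.18 and -1.51, and Rbl1 was at 1.23 in the back and just past 2-fold lower in the tail.

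In the reverse direction, 5 of 17 genes of the interleukin-1 family were higher and 2 lower in the tail (median -0.17). Il1f6 was at -3.85 and 1.60, Il1f10 at -2.76 and 1.42, Il1f8 at -2.30 and 1.32, and Il18 at -2.23 and 1.23. The lymphocyte genes Cd4, Cd8a and Nkg7 were at -4.85 and 1.29, -1.52 and 2.75, and -1.36 and 1.01, and the class II gene H2-Oa was at -1.34 and 1.08. Among epidermal and follicle genes, Casp14 was at most -3.01 and at 1.34, Msx1 at -2.38 and 1.28, Fgf5 at -1.81 and 2.90, and Foxq1 at -1.66 and 1.54. Klk14 was at -1.39 and 1.29 and Msx2 at -1.15 and 1.45. Of transporters and enzymes, Fmo2 was at -4.25 and 1.49, Slc40a1 at -2.66 and 2.02, Gsta1 at -1.86 and 1.31, Slc15a1 at -1.57 and 1.85, and Arg1 at -1.32 and 1.30. The remaining genes were Erbb4 at most -3.18 and at 1.67, Cited4 at -3.07 and 1.40, Lrrc28 at -2.80 and 1.13, and Mycn at -1.70 and 1.49. Myh11 was at most -1.77 and at 1.16, Cnn1 at -1.57 and 1.34, Rbp4 at most -1.46 and at 1.94, and Col1a1 at -1.29 and 1.09.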

How the results depend on the processing

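With 11 alternatives for background correction, scaling, filters, probe choice and source of the values, the counts of 1826 higher and 1698 lower genes stayed within 1.5 times, except in the following. Spike-in scaling gave 784 higher and 3829 lower, so that 17% of calls were higher, and requiring a signal of 200 on both arrays gave 1194 and 1011 of 8913 genes. Of 559 list medians under the alternatives, 441 moved by less than the spread of 0.22 between probes. In all 33, from 21 lists, took the opposite sign, 14 of them with spike-in scaling. Of the 33, 31 had a reported median of at most 0.58 in size, and 2 had one past 2-fold: CXC chemokines with spike-in scaling at -0.47, and suprabasal genes with no filter at 0.40, where genes saturated on both arrays enter at the scaling difference of 0.63. Of 4737 values of the 447 named genes under the alternatives, 721 moved by the spread of 0.22 or more. These included all 447 with spike-in scaling and 129 of 446 with normexp background correction. None of the called genes took the opposite sign. For several alternatives this was fixed beforehand. Spike-in scaling and median centring shift all genes alike by less than 2-fold, and stricter filters leave values unchanged. No paired analysis was possible because each group has 1 array. For the same reason no replicate could be left out. Saturation and background limit 3401 genes to no value.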
